A study of Arabidopsis thaliana with 6 samples.

Results

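The regions described here are the places where EBS was found on gene bodies in replicates 1 and 2 of a chromatin immunoprecipitation sequencing (ChIP-seq) study, with no peak of replicate 3 at the same place. They were chosen by the presence and absence of peaks: nuclear peaks of all replicates were joined into regions on an overlap of 1 bp or more, and a region became a member when it held a peak of replicate 1 and a peak of replicate 2, held none of replicate 3, and overlapped the body of a protein-coding gene by at least 1 bp. Of 7956 merged regions, 501 (6.3%) were members. They covered 0.704 Mb and overlapped 614 of the 27444 nuclear protein-coding genes (2.24%). Because the peaks themselves set membership, the counts and scores below are descriptions and no test was made on them.

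The study mapped EBS in Arabidopsis thaliana seedlings with 3 anti-FLAG ChIP samples, and sequenced 3 input DNA samples. The ChIP samples came from whole Col-0 seedlings of about 10 days, grown on plates with 16 h of light and 8 h of dark and given no treatment. These plants were ebs shl mutants that carried a FLAG-tagged EBS transgene under the promoter of EBS itself, so both EBS and its close relative SHL were mutated at their own loci in every sample. The input samples had the same ecotype, background and growth conditions, and peak lists were used here for the ChIP samples alone. No sample used here was labelled as ChIP from plants without the FLAG tag, so signal that does not depend on the tag was not measured. The labels number the replicates and do not say whether they were separate plantings.

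EBS is a plant chromatin protein with a bromo-adjacent homology domain and a plant homeodomain finger, both of which read methylated tails of histone H3. It is known for delaying flowering in Arabidopsis, where it represses the floral integrator FT. A gene body is the transcribed part of a gene. The genes most often met below encode the antenna and subunits of the photosystems, the chloroplast complexes that capture light.

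The peak lists held 5237, 4216 and 3661 nuclear peaks in replicates 1, 2 and 3. Each list gives a score per peak, the authors' own value, which grows as the caller's p-value shrinks. Raw scores of different lists are printed side by side, and an order between lists is read only from percentiles within each list. The list of replicate 3 stood apart in location and cover. On a gene body lay 52.8% of its peaks, against 70.4% in replicate 1 and 70.3% in replicate 2. It covered 2.71 Mb, while replicate 1 covered 4.39 Mb and replicate 2 covered 4.47 Mb. The median raw scores in the lists of replicates 3, 1 and 2 were 102, 33.4 and 42.7, and no order is read from them. The lists hold no read counts, so depth was unknown, and a place without a peak in replicate 3 is a place where no peak was listed, not a place shown to lack EBS. What sets the list of replicate 3 apart was not tested. With the condition on replicate 3 dropped, replicates 1 and 2 shared 1442 gene-body regions in place of 501.

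Members made up 10.0% of the replicate 1 peaks (526 peaks) and 12.2% of the replicate 2 peaks (516 peaks). Members were middling peaks of lists whose lowest scores were 20 in replicate 1 and 20 in replicate 2. In replicate 1 their scores ran from 20.02 to 433.85 with a median of 32.9, and in replicate 2 from 20.06 to 574.16 with a median of 36.3. As within-list percentiles, the share of a list's nuclear peaks that score no higher, the members' medians were 48.9 in replicate 1 and 44.6 in replicate 2. In the 944 gene-body regions with a peak of all 3 replicates the median scores were 250 in replicate 1, 273 in replicate 2 and 493 in replicate 3. The other pairs were like the members. The median percentile was 45.0 in replicate 1 for gene-body regions of replicates 1 and 3. It was 40.2 in replicate 2 for those of replicates 2 and 3. A score of at least 100 was reached by 28 members (5.59%) in replicate 1, by 53 (10.6%) in replicate 2 and by 18 in both. At the lower end, 291 members had a score under 30 in at least 1 list and 100 had it in both.

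The order of the members was only loosely shared between the lists. Across the 501 members, Spearman's rho between the replicate 1 and replicate 2 scores was 0.383, against 0.934 across the 944 gene-body regions of all 3 replicates. Members span a narrower range of scores than those regions do, and the 2 lists share a caller and a genome, so the coefficients only describe the lists. The rule requires the peaks of the pair to be joined into 1 region, and how far they coincided varied: the bases shared by the peaks of replicates 1 and 2 were a median of 58.9% of the bases covered by either (range 0.39% to 98.2%), and the midpoints of the best peaks lay a median of 187.5 bp apart (at most 1318 bp). In the regions of all 3 replicates the same values were 67.6% and 165 bp. Replicate 2 peaks covered more bases than replicate 1 peaks in 351 of 501 members. The medians, summed over a replicate's peaks in a member, were 1075 bp in replicate 2 and 900 bp in replicate 1. The whole lists differed in the same direction, with median peak widths of 880.5 bp in replicate 2 and 699 bp in replicate 1.

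**Figure D1:**
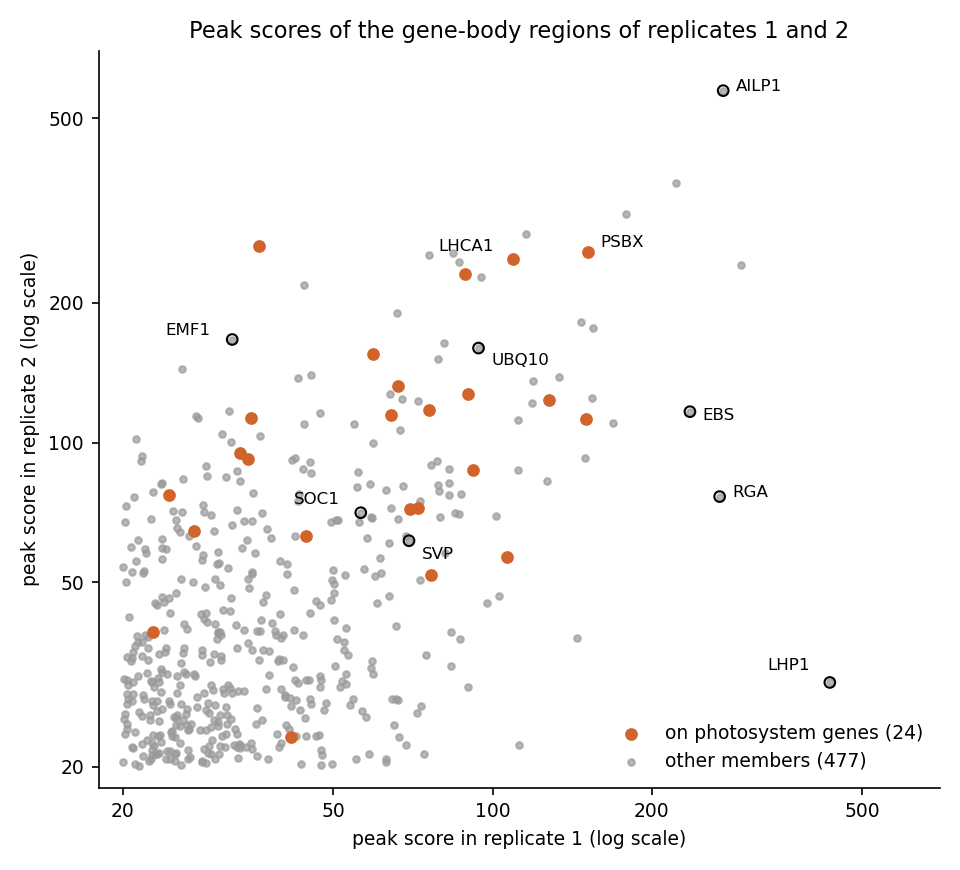
Score of each of the 501 members in replicate 1 (horizontal axis, log scale) against its score in replicate 2 (vertical axis, log scale), where a member's score is that of its best peak. Orange points are the 24 members on photosystem genes and grey points the other 477, with named members outlined or labelled. The medians are 32.9 in replicate 1 and 36.3 in replicate 2, LHP1 lies far to the right with 433.85 and 30.38, and AILP1 is the highest in replicate 2 with 574.16.

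Members lay mainly within genes. A median of 94.9% of a member's bases fell on protein-coding gene bodies, and 176 members (35.1%) lay wholly on them, against a median of 79.9% and 129 regions (13.7%) for the gene-body regions of all 3 replicates. The regions of replicates 1 and 3 (154 regions, median 96.9%) and of replicates 2 and 3 (136 regions, median 95.3%) were like the members in this. The median region measured 1293 bp among members, 1818.5 bp among regions of all 3 replicates, 1007 bp for replicates 1 and 3, and 1150 bp for replicates 2 and 3. Length bears on how much of a region falls on a gene, and its part in these shares was not tested. Of all regions of replicates 1 and 2 without replicate 3, 86.5% (501 of 579) touched a gene body, compared with 53.0% of the regions of all 3 replicates. In this the other pairs were lower, with 60.2% for replicates 1 and 3 and 69.0% for replicates 2 and 3. The share was 83.2% for regions of replicate 1 alone, 86.6% for replicate 2 alone and 53.3% for replicate 3 alone.

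Within the gene it overlapped most, a member covered a median of 61.0% of the body, against 77.7% in regions of all 3 replicates. The median was 39.2% for replicates 1 and 3 and 53.5% for replicates 2 and 3. In 162 members (32.3%) the region lay inside the gene, in 280 (55.9%) it ran over an end of the gene, and in 59 (11.8%) it spanned the whole gene. Regions of all 3 replicates lay inside the gene in 106 cases (11.2%) and spanned it in 297 (31.5%). Regions of replicates 1 and 3 lay inside in 42.9% and spanned the gene in 2.60%. For replicates 2 and 3 these shares were 36.8% and 9.56%. In the shares inside and spanning the gene, members were nearer to these pairs than to regions of all 3. In the median share of the body covered, they lay between the pairs and regions of all 3. The peaks of both replicates were on the gene in nearly all members: the most-overlapped body held a peak of replicate 1 and a peak of replicate 2 in 488 of 501 members (97.4%). The genes concerned were of ordinary length, with a median of 1956 bp against 2078 bp for all protein-coding genes. Each member had a different most-overlapped gene, and 99 members touched 2 genes and 9 touched 3. The gene table used has no strand and no exons, so which end of the gene was covered, and whether a region fell on exons, introns or untranslated regions, was not analysed here.

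**Figure D2:**
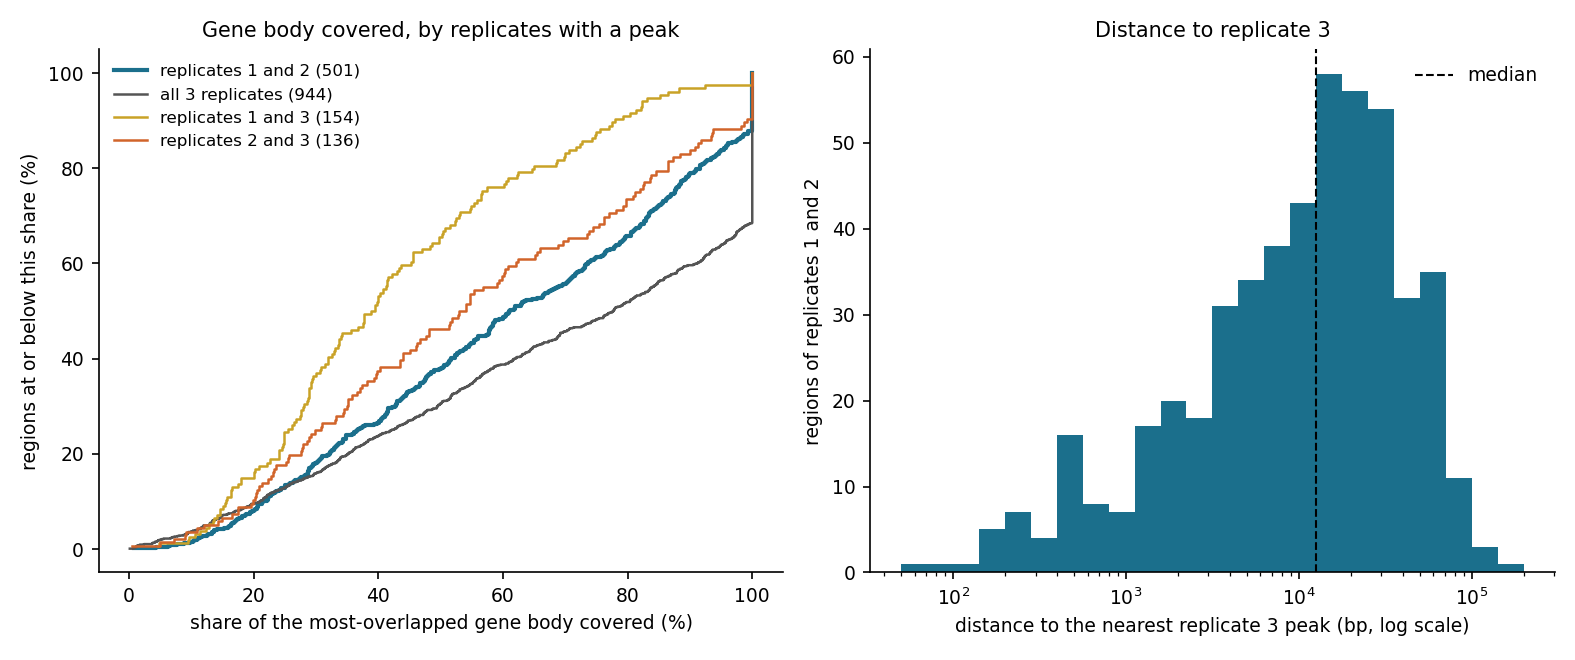
Left, cumulative share of regions (vertical axis, %) by the share of the most-overlapped gene body that they cover (horizontal axis, %), for gene-body regions grouped by the replicates with a peak. Right, number of members (vertical axis) by distance to the nearest replicate 3 peak (bp, log scale), with the median of 12581 bp as a dashed line. The curve of the members runs between that of all 3 replicates, the lowest over most of its length, and that of replicates 1 and 3, and 143 of the 501 members have a replicate 3 peak within 5000 bp.

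Members were spread over all 5 chromosomes, with 134, 85, 106, 66 and 110 on chromosomes 1 to 5, or between 1.58 (chromosome 4) and 1.97 (chromosome 2) per 100 protein-coding genes. In the 119 bins of 100000 bp with the least protein-coding cover, out of 1193, there were 2 members (0.399%), against 31 (3.28%) of the gene-body regions of all 3 replicates. The share was 1.95% for replicates 1 and 3 and 0.735% for replicates 2 and 3. For gene-body regions of a single list it was 0.253%, 0.300% and 1.99% in replicates 1, 2 and 3, so a low share was not particular to members. A pseudogene was also touched by 11 of 501 members, against 63 of 944 regions of all 3 replicates (6.67%). Neighbouring members on a chromosome lay a median of 129869 bp apart, and 16 of 496 neighbouring pairs were within 5000 bp of each other.

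The distance from a member to replicate 3 varied widely. Overlap is excluded by the rule, and no such distance is given here for other places. The values below therefore do not say whether members lay nearer to replicate 3 peaks, or farther from them, than other places. The nearest replicate 3 peak lay a median of 12581 bp from a member, with a range of 55 to 174084 bp. It was within 1000 bp in 48 members (9.58%) and within 5000 bp in 143 (28.5%). In 25 members a replicate 3 peak stood elsewhere on the same gene body. At the edge of the rule, the members closest to replicate 3 were those on MC3, which encodes a metacaspase (55 bp), AT5G35069 (83 bp) and ICL, the isocitrate lyase of the glyoxylate cycle (106 bp). Just outside it, the gene-body regions of all 3 replicates with the fewest bases of replicate 3 were those on GPAT6, a glycerol-3-phosphate acyltransferase of cutin synthesis (116 bp), CID11 (180 bp) and CCR3 (198 bp). The member with the fewest bases on a gene body had 17 (AT2G25010, chromosome 2, 10633738 to 10634656), while the nearest region left out lay 16 bp from a gene body (chromosome 2, 10148018 to 10148616, scores 23.57 and 24.13). A few regions thus fell on either side of the rule by 198 bp or less.

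The members that ranked highest in the lower of their 2 lists were on genes of several kinds. The first was on AILP1 (AT5G19140, chromosome 5, 6423029 to 6425790, TAIR10), with a score of 272.76 in replicate 1 and 574.16 in replicate 2. The region on AT3G22970 had 222.39 and 363.06, and that on CCL (AT3G26740) had 178.3 and 311.13. The lowest within-list percentile among these was 78.9, and the nearest replicate 3 peak was between 9741 and 16884 bp away. AT1G13360 followed with 294.33 in replicate 1 and 241.73 in replicate 2. MYB73, an R2R3-type MYB transcription factor, had 146.84 and 181.85, and the region spanned the gene. BBX28, a B-box zinc finger protein of light and flowering control, had 154.86 and 176.41. Another of the leading members covered the whole of PORB, the light-dependent protochlorophyllide oxidoreductase of chlorophyll synthesis, with 94.94 in replicate 1 and 228.09 in replicate 2 over 3570 bp (chromosome 4, 13725498 to 13729067). AT3G24480 had 115.45 and 281.59, and AT5G19120 had 133.61 and 138.76. The other 3 of the leading 12 were on PSBX, LHCA1 and UBQ10 and are described with their groups.

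A few members ranked high in 1 list and near the bottom of the other. The widest differences in within-list percentile were on SNX2b, a sorting nexin of membrane traffic (62.77 in replicate 1 and 20.44 in replicate 2), AT5G62560 (74.02 and 21.25), AT5G66180 (62.95 and 20.73) and AT3G15630 (111.98 and 22.29). In all 4 the higher percentile was that of replicate 1, between 66.6 and 74.0, and in replicate 2 the lowest was 2.50 at SNX2b. The longest member, 4844 bp, was on EBS itself, and the others of the 4 longest were on PORB, PATL1 and AT3G24480. PATL1, a patellin of membrane traffic at the cell plate, was spanned by a region of 3427 bp with 149.24 in replicate 1 and 92.41 in replicate 2.

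Gene lists put these genes in groups. A list gene was counted when a member overlapped its body, beside the 2.24% of all protein-coding genes that a member overlapped and the 4.7% (1290 genes) overlapped by a region of all 3 replicates. The photosystem, antenna and electron transport list had the highest share of the 10 lists, with 23 of 45 genes (51.1%). Hormone signalling had 5 of 23 (21.7%), carbon fixation and photorespiration 3 of 19 (15.8%), the cytoskeleton, ubiquitin and glycolysis list 3 of 20 (15%), and chromatin regulators 3 of 30 (10%). Light signalling and clock genes had 2 of 22 (9.09%) and flowering time regulators 2 of 37 (5.41%). In lists of this size a single gene moves the share by several percent, so the smaller lists say little beyond the genes they name. Median gene length also differed between the lists, from 1367 bp (photosystem) to 5853 bp (proton pumps and cellulose synthases), and its part in the shares was not tested.

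**Figure D3:**
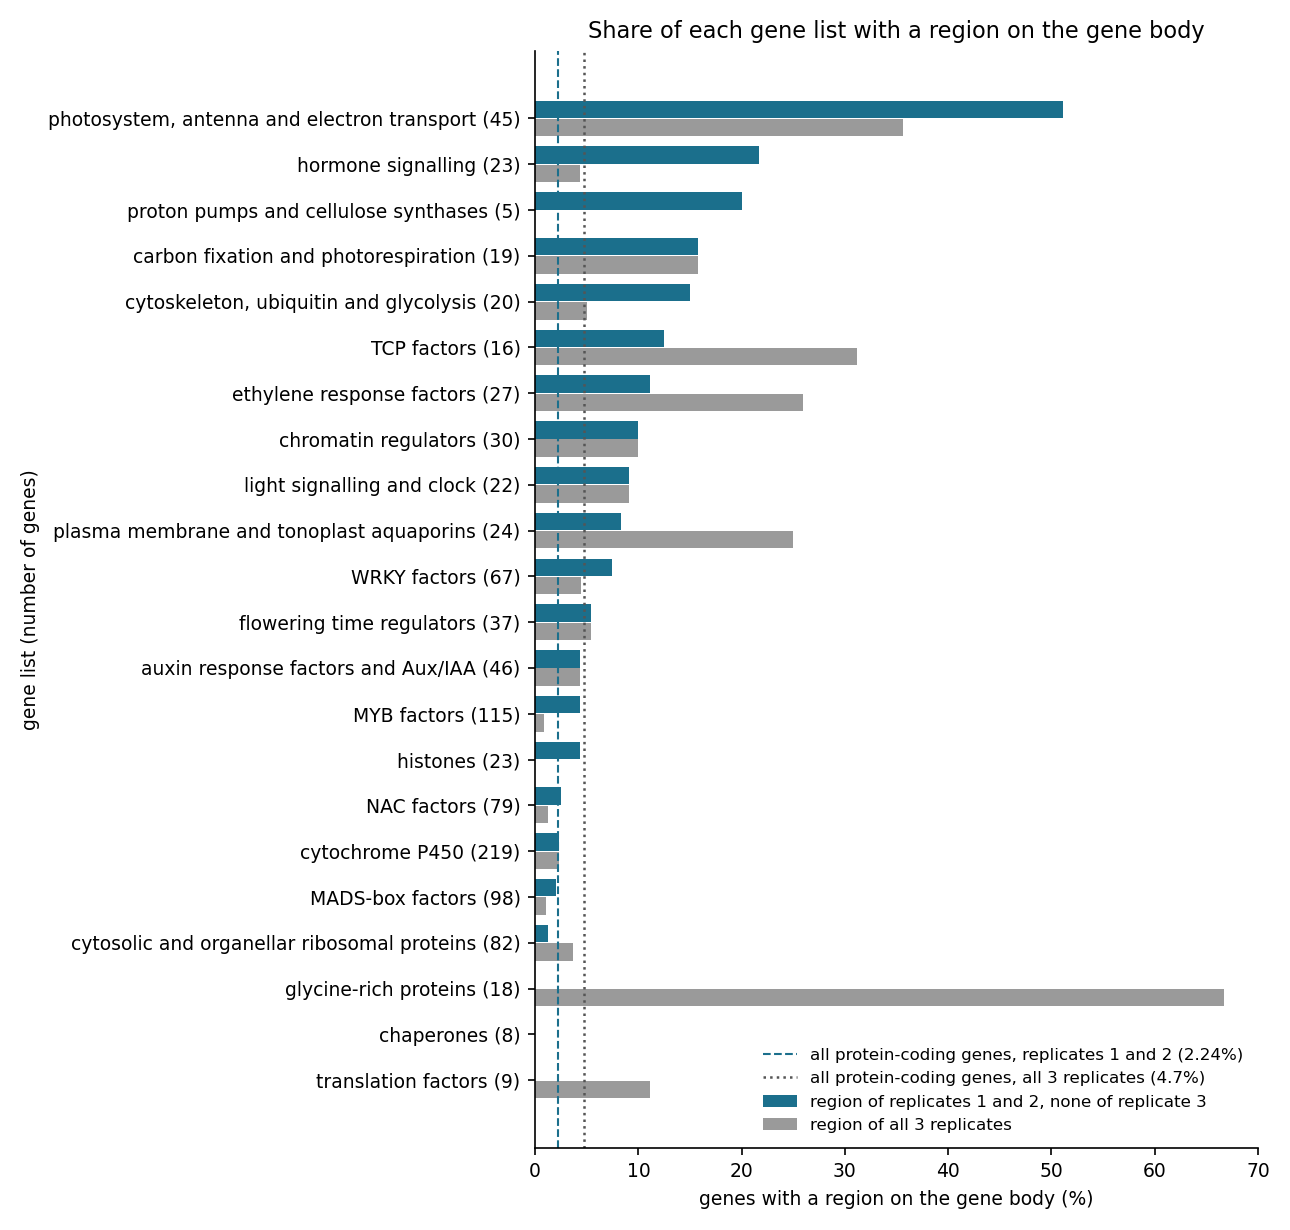
Share of the genes of each list or symbol family (number of genes in brackets) whose body is overlapped by a member (blue bars) or by a region of all 3 replicates (grey bars), in %. The dashed and dotted lines mark the same shares over all protein-coding genes, 2.24% and 4.7%. Photosystem genes have the longest blue bar at 51.1%, and glycine-rich protein genes have the longest grey bar at 66.7% with no member.

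A gene can have both a member and a region of all 3 replicates, since the rule keeps replicate 3 peaks out of the region and not off the gene. Over all protein-coding genes 1884 had either and 20 had both. Those 20 were among the 614 genes under a member, while 4.7% of all protein-coding genes had a region of all 3 replicates. On the photosystem list a member overlapped 23 genes and a region of all 3 replicates overlapped 16 (35.6%), while LHCB1.4 had both, so that 38 of 45 genes had a region of either kind. Of the other 7 genes, 6 had peaks in single lists (LHCB4.3, PSBS, PSAE2, PSAH1, PSBO2 and PSBQ1) and PETC had no peak. By replicate, a merged region with a peak of that replicate touched the body of 41 of the 45 genes (91.1%) in replicate 1, 41 (91.1%) in replicate 2 and 17 (37.8%) in replicate 3. Over all protein-coding genes the same shares were 14.9%, 12.5% and 8.35%. Replicates 1 and 2 each had listed peaks on most photosystem genes, and replicate 3 did not. With the condition on replicate 3 dropped, 38 of the 45 genes were under a region shared by replicates 1 and 2, and with the lists reduced to equal length 22 were under a member. The members and the list were chosen with earlier results on these data known, so the count is not independent evidence.

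In the light-harvesting antenna of photosystem I, LHCA1 and LHCA3 were under members and LHCA2 and LHCA4 under regions of all 3 replicates. LHCA1 (AT3G54890, chromosome 3, 20338670 to 20340971) had 109.23 in replicate 1 and 248.24 in replicate 2, with 87.7% of its body covered. LHCA3 had 127.62 and 123.69 over 90.6% of the body. The nearest replicate 3 peak was 6854 bp from the LHCA1 region and 72477 bp from the LHCA3 region. LHCA2, by contrast, had 65.23, 64.42 and 144.93 in replicates 1, 2 and 3, and LHCA4 had 347.32, 327.92 and 36.19. The replicate 1 and 2 scores of LHCA1 and LHCA3 were thus above those of LHCA2 and below those of LHCA4.

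The antenna of photosystem II is built of LHCB proteins, and members overlapped 8 of the 14 LHCB genes. LHCB3 had 88.85 in replicate 1 and 230.71 in replicate 2, and the region of 2765 bp spanned the gene. LHCB4.2 had 150.31 and 112.26, LHCB5 had 66.21 and 132.62, and LHCB2.3 had 75.74 and 117.57. The regions, which join the peaks of both replicates, covered all of these 4 genes from end to end. On LHCB4.2 and LHCB2.3 the peaks of neither replicate alone did so. The nearest replicate 3 peak was 27938 bp or more away from each of the 4 regions. LHCB1.1 had 36.18 in replicate 1 and 265.58 in replicate 2, and LHCB1.4 had 59.36 and 154.9. LHCB1.2 was touched over 31.7% of its body by a region with 34.89 and 112.78. That region lay on LHCB1.2 over 388 of its 874 bp and had its largest overlap with the neighbouring gene AT1G29900 (CARB). In these regions the within-list percentile was the higher in replicate 2 in each case, and replicate 3 peaks stood 155, 254 and 347 bp from the regions on LHCB1.1, LHCB1.4 and LHCB1.2. LHCB2.2 was touched by 2 members, with 34.54 and 92.23 for the one that lay mainly on AT2G05060 and 24.48 and 77.16 for the one that lay mainly on LHCB2.2 itself. The LHCB1 genes are near-identical copies of each other, as are the LHCB2 genes, so reads may have been placed on the wrong copy, and the values of single copies are uncertain.

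Among the photosystem I subunits, members overlapped 6 of 12 genes: PSAD2, PSAF, PSAG, PSAH2, PSAN and PSAO. PSAF, a subunit at the plastocyanin docking side, had 89.83 in replicate 1 and 127.38 in replicate 2 and was spanned by its region. PSAD2, a subunit at the ferredoxin docking side, had 91.83 and 87.17. PSAO had 72.21 and 72.1, and PSAN had 69.81 and 72.07. By percentile PSAF was almost level in the pair of lists (71.5 in replicate 1 and 71.2 in replicate 2), while PSAD2, PSAO and PSAN were higher in replicate 1. PSAG had scores of 27.28 and 64.41 and PSAH2 had 41.6 and 23.18. Regions of all 3 replicates lay on PSAD1, PSAE1, PSAK and PSAL, so the PSAD pair was split, with PSAD1 at 1107.49, 665.17 and 3100 in replicates 1, 2 and 3.

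Members overlapped 6 of the 10 nuclear photosystem II genes on the list, and a region of all 3 replicates overlapped 1, PSBW. PSBX (AT2G06520, chromosome 2, 2587093 to 2588620), a small membrane subunit, was the highest by its lower percentile, with 151.55 in replicate 1 and 258.09 in replicate 2. The oxygen-evolving complex subunits PSBO1 (76.54 and 51.81) and PSBP1 (106.37 and 56.6) had the higher percentile in replicate 1. PSBY (64.35 and 114.47) and PSBQ2 (22.83 and 39.1) had it in replicate 2, and PSBR (44.39 and 62.79) was level, with percentiles of 59.7 and 59.8. Among these 6 genes the nearest replicate 3 peak was 1749 bp away, at PSBO1. Of the electron carriers, the plastocyanin gene PETE1 had a member with 33.24 in replicate 1 and 95.02 in replicate 2, although the replicate 1 peak lay past the end of the gene. The other plastocyanin gene PETE2, the ferredoxin gene FD2 and the reductase gene FNR1 had regions of all 3 replicates.

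**Figure D4:**
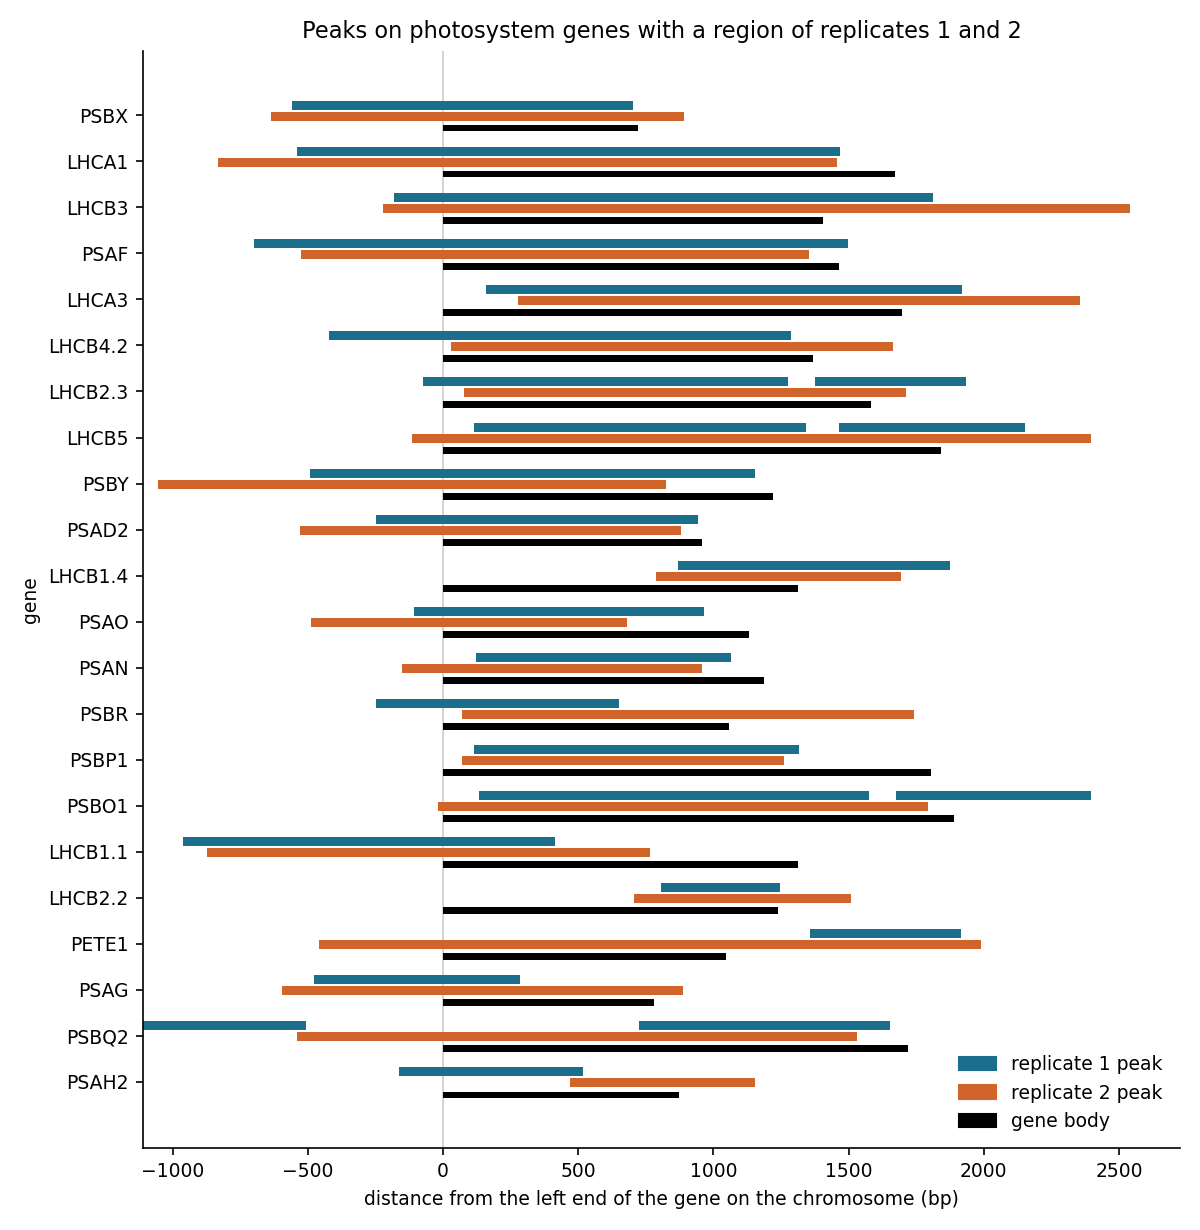
Peaks of replicate 1 (blue) and replicate 2 (orange) and the gene body (black) for the 22 photosystem genes that are the most-overlapped gene of a member, drawn as distance in bp from the gene's left end on the chromosome. Genes run from the highest to the lowest of the lower within-list percentiles. In most genes the peaks of both replicates cover much of the body, PSAH2 is covered from opposite sides, and the replicate 1 peak of PETE1 lies beyond the gene.

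The 24 members on photosystem genes were longer and had higher scores than the other members, by their medians. Their median score was 68.0 in replicate 1 and 104 in replicate 2, against 32.0 and 35.3 for the other 477 members. They covered a median of 97.4% of their most-overlapped gene and were 1857.5 bp long, against 60.0% and 1281 bp. A replicate 3 peak lay within 1000 bp of 3 of the 24 and of 45 of the 477. Photosystem genes were short, with a median body of 1367 bp, which bears on the covered share. The photosystem genes under regions of all 3 replicates (16 genes in 15 regions) had median scores of 92.4, 172 and 145 in replicates 1, 2 and 3, with ranges of 39.77 to 2232 in replicate 1 and 24.59 to 2842 in replicate 2. The scores of the members, 22.83 to 151.55 in replicate 1 and 23.18 to 265.58 in replicate 2, overlapped the lower part of those ranges. Among the 84 members with a score of at least 50 in both lists 15 were on photosystem genes, and among the 18 with at least 100 in both there were 4.

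In carbon fixation, members overlapped RBCS1A and RBCS3B, which encode small subunits of Rubisco, and CA1, a carbonic anhydrase. RBCS1A had 111.63 in replicate 1 and 87.22 in replicate 2 over 87.7% of the gene, RBCS3B had 42.85 and 30.33, and CA1 had 42.54 and 23.27. The RBCS genes are also near-identical copies, so their counts per copy are uncertain. Another 3 genes of the list, CA2, CAT1 and CAT3, had regions of all 3 replicates. No peak of any list lay on 8 of the 19, beside 21295 of all 27444 protein-coding genes. The count for this list, 3 of 19, stands beside 23 of 45 for photosystem genes, and the difference was not tested.

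Hormone signalling genes under members included both of the DELLA repressors of gibberellin response that are named RGA and GAI. RGA (AT2G01570, chromosome 2, 255181 to 257619) had 268.55 in replicate 1 and 76.46 in replicate 2, and the joined region covered its body from end to end. GAI had 86.26 and 70.05 over 59.3% of its body. The other 3 were ARF2 (102.7 and 46.64) and ARF6 (23.39 and 25.14), auxin response factors, and BRI1 (27.11 and 50.12), the brassinosteroid receptor kinase. Of the other DELLA genes, RGL3 had a region of all 3 replicates with 1217.37, 2128.27 and 1493.75, RGL2 had a peak of replicate 2 with 47.97 and RGL1 had no peak. ARF6 stood 184 bp from a replicate 3 peak and had such a peak elsewhere on its body, while the regions on RGA and GAI were 5599 and 4952 bp away from any.

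Chromatin regulators under members were EBS, EMF1 and LHP1. EBS (AT4G22140, chromosome 4, 11728027 to 11732870) had 235.99 in replicate 1 and 116.57 in replicate 2, and the nearest replicate 3 peak was 8723 bp away. The plants carried EBS both at its mutated locus and as a transgene with its promoter, so reads of the locus and of the transgene cannot be told apart in these lists. SHL, the other mutated gene, had a region of all 3 replicates with 85.8, 780.16 and 34.46. LHP1, which binds trimethylated histone H3 at Polycomb targets, had the highest replicate 1 score of all members, 433.85, and 30.38 in replicate 2. EMF1, a Polycomb-associated repressor of flowering, had 32.19 and 166.83. By percentile LHP1 was at 86.3 in replicate 1 and 36.1 in replicate 2, and EMF1 at 47.7 and 74.2. A peak-bearing region of replicate 1 touched 15 of the 30 chromatin genes (50%), of replicate 2 touched 6 (20%) and of replicate 3 touched 6 (20%). Over all protein-coding genes these shares were 14.9%, 12.5% and 8.35%. The chromatin genes were long, with a median of 5299 bp against 2078 bp for all, and the part of length was not tested. The Polycomb genes CLF (297.48), SWN (617.73) and MSI1 (211.67) had peaks of replicate 1 alone. The presence of LHP1 among the members thus rests on a replicate 2 peak of the lower part of its list.

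Flowering time regulators under members were SOC1 and SVP, both MADS-box factors. SOC1 (AT2G45660, chromosome 2, 18809177 to 18811070), a floral integrator, had 56.33 in replicate 1 and 70.59 in replicate 2 over 52.3% of its body. A replicate 3 peak stood 2526 bp from the region. SVP (chromosome 2, 9580027 to 9582221), a repressor of flowering, had 69.48 and 61.41 over 51.6% of its body, with replicate 3 at 9867 bp. Both genes were above the members' median score in each list. TEM1 and TEM2 had regions of all 3 replicates, FT had no peak on its body, and FLC had a peak of replicate 2 with 24.51. No peak of any list lay on 25 of the 37 genes, beside 21295 of all 27444 protein-coding genes. A flowering gene without a peak was thus nothing unusual.

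In light signalling, members overlapped CRY1, a blue light photoreceptor (42.44 in replicate 1 and 27.87 in replicate 2), and PIF4, a basic helix-loop-helix factor that acts with phytochrome (52.87 and 30.18). Each covered about the same part of its gene, 34.8% in both. PIF1 and ZTL had regions of all 3 replicates. Of the 22 genes 16 had no peak, among them the clock genes CCA1, LHY and TOC1, beside 21295 of all 27444 protein-coding genes. Polyubiquitin genes were the remaining group: UBQ10 (94.03 and 159.88), UBQ11 (62.89 and 78.85) and UBQ3 (33.53 and 59.38). They hold repeated ubiquitin units that resemble each other, so placement of reads on them is uncertain, and UBQ10 also had a region of all 3 replicates on its body, with a replicate 3 peak 660 bp from the member. The actin genes on the list (ACT2, ACT7 and ACT8) had no peak, and of its 12 tubulin genes TUB2, TUB3 and TUB5 had peaks in single lists. The proton pump gene AHA1 (29.85 and 20.82) was the 1 gene of 5 with a member in the proton pump and cellulose synthase list. None of the 9 translation factor and 8 chaperone genes had a member.

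Symbol families, found by gene name, ranged from no member to 48.8% of genes. That highest share, 20 of 41 genes, was of the light-harvesting and photosystem symbols, whose genes under members are all on the photosystem list except PSB27, a photosystem II assembly factor (20.83 and 22.06, with replicate 3 at 1283 bp). Several families were near the share of all genes. Members overlapped 5 of 219 cytochrome P450 genes (2.28%), 2 of 98 MADS-box genes (2.04%), and 2 of 79 NAC genes (2.53%). Histone genes had 1 of 23 (4.35%, HTA7). MYB genes had 5 of 115 (4.35%), led by MYB73 with MYB3 (63.62 and 60.69) and MYB34 (39.4 and 34.07) after it. WRKY genes had 5 of 67 (7.46%), led by WRKY57 (45.24 in replicate 1 and 42.94 in replicate 2) and WRKY15 (38.92 and 38.38). Larger scores were found on ERF104, an ethylene response factor (86.37 and 245.28), and PIP1B, a plasma membrane aquaporin (75.94 and 254.25). Ethylene response factors had 3 of 27 (11.1%), aquaporins 2 of 24 (8.33%) and TCP factors 2 of 16 (12.5%), while regions of all 3 replicates overlapped 7 (25.9%), 6 (25%) and 5 (31.2%) of these genes. Glycine-rich protein genes had no member among 18, and 12 of them (66.7%) had a region of all 3 replicates. Over all protein-coding genes, 20 of the 1290 with a region of all 3 replicates also had a member, beside 2.24% of all genes with a member.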

How the data were processed

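FLAG-tagged EBS was mapped by ChIP-seq in 3 samples, each with a deposited peak list, and the 3 input samples entered no comparison. The tools named per the submitters' processing notes are MACS 1.4, SAMtools 1.3 and Bowtie2 2.2.8, and the build is TAIR10. For the calling threshold and the use of the input, the answer is not given in the sources used here. Separately for each sample, the authors deposited 1 list per sample with a score per peak. Scores were ranked within a list, and order between lists was read from percentiles. The score of a region is that of its best peak, and percentiles are shares of a list's nuclear peaks at or below a score, with scores capped at 3100. Replicates were grouped by their titles, and depth was unknown.

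Nuclear peaks were merged at 1 bp of overlap with Python 3.11.15, pandas 2.3.3, NumPy 2.4.6 and SciPy 1.17.1, and the merging code was tested on simulated intervals. Printed coordinates follow the peak lists (TAIR10) and count from 1. Genes came from a RefSeq table of assembly TAIR10.1, used as the same nuclear frame and matched by locus tag (218 of 218 list genes). This was checked by shifting the 579 regions of replicates 1 and 2: 81.2% of midpoints lay in a gene body unshifted, against 53.4% to 61.0% with shifts of 5000 to 50000 bp. A distance is counted to the nearest base of a peak.

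The members, the 10 gene lists and the 14 symbol patterns (13 with a match) were chosen with earlier results of these data known. The rule for named genes gave the 12 members with the highest lower percentile, the 4 longest, the 4 with the widest percentile gap, the 3 at each edge, up to 4 genes per list in full with the others named, and up to 3 per symbol pattern. List genes without a member were named after their values were seen. No test was made, since peaks set membership and regions are not replicates. Promoter motifs and sequences were not analysed here. The result of 1 symbol family, not a photosystem family, is not reported here. Alternatives were other score limits, overlaps, list lengths, distances and gene-body rules, and leaving out each replicate.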

Additional observations from a re-analysis of the deposited data

How the results depend on the processing

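The number of members depends on the lists. It was 501 as reported, 147 with a score of at least 50 in every list, 64 with at least 100, and 329 with lists of equal length (3661 peaks). The set with a score of at least 50 is not a subset, since a weak replicate 3 peak no longer counts: 84 of the 147 regions overlapped a member, as did 18 of the 64. Joining peaks only where 50% of the shorter was shared, no replicate 3 peak within 1000 bp, at least 50% of the region on gene bodies and the midpoint in a body gave 480, 453, 475 and 470. Leaving out a replicate, with its condition dropped, gave 1442 to 2558 regions. The number of photosystem genes under a region that met the rule was 23 as reported. It was 5 with a score of at least 100 and 25 to 38 with a replicate left out. Under each other alternative it was 20 to 22. The 20 genes at a score of at least 50 were not all under members of the main set. Of those members, 15 on photosystem genes had that score in both lists. With a score of at least 50 the genes under a region were 0.707% of all protein-coding genes, with lists of equal length 1.49%. The photosystem counts under a score of at least 100, equal lengths, the midpoint, the most-overlapped gene alone (22) and leaving out a replicate were added after seeing the data. The mean of the median score percentiles was 46.7 and became 69.6 with a score of at least 50, and the median share on gene bodies was 94.9% and became 90.6%. The median distance to replicate 3 was 12581 bp as reported, 22329 with a score of at least 50, 11425.5 with 50% overlap, 14225 with no replicate 3 peak within 1000 bp and 12856 with 50% on gene bodies. Removing regions near a replicate 3 peak lengthens that distance by construction. The cause of the other changes was not tested.

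No paired analysis was possible because the input samples had no peak lists used here and the results come from no test. The motif result planned for promoters was not run, as no sequence was used here, and a symbol pattern for leucine-rich repeat receptor kinases matched no gene. The lists give no counts, so how far a missing replicate 3 peak lay under the caller's threshold is unknown, and 291 members had a score under 30 in at least 1 list.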

Other observations

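Members also lay on genes that no list covered. They were picked after their values were seen, so they are single genes with their values and no theme is drawn from them. A member lay on ERD14, a dehydrin, with a score of 119.42 in replicate 1 and 136.03 in replicate 2, and the joined region covered the gene from end to end. ERD10, another dehydrin, had 28.42 and 70.89, and DREB2A, a drought-responsive transcription factor, had 42.34 and 62.94. PYR1, an abscisic acid receptor, had 46.38 and 45.56, and NCED5, an enzyme of abscisic acid synthesis, had 65.6 and 27.96. ABI1 and ABI2, phosphatases of abscisic acid signalling on the hormone list, had no member and peaks of replicate 1 alone (138.18 and 32.96). In chlorophyll synthesis, CRD1 had 20.78 and 52.69 in addition to the region on PORB.

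Several members lay on both genes of a related pair. EBF1 and EBF2, F-box proteins that target EIN3 in the ethylene pathway, had 34.47 and 36.94, and 35.06 and 21.82, in replicates 1 and 2. OZF1 and OZF2, zinc finger proteins, had 45.19 and 90.75, and 25.88 and 143.96. KNAT4 and KNAT5, homeobox factors, had 26.01 and 35.1, and 30.76 and 23.27. In each pair the genes lay on different chromosomes, and both OZF genes had the higher within-list percentile in replicate 2. Auxin transport genes were present at low scores: AUX1 had 23.93 and 39.48, PIN7 had 29.38 and 29.98, and ABCB19 had 28.24 and 20.48. Light-related genes outside the list included HFR1 (42.8 and 74.94), RPT2 (27.55 and 114.37) and the blue light receptor PHOT1 (22.56 and 20.72). MYBL2, a repressor of flavonoid synthesis, had 79 in replicate 1 and 151.54 in replicate 2, with 98.0% of its gene covered and the nearest replicate 3 peak 26672 bp away.

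Of the 614 genes under a member, 4 were overlapped by 2 members each. A region of all 3 replicates also lay on the body of 20 of the 614, beside 4.7% of all protein-coding genes. Just outside the gene-body rule, the region on chromosome 4 from 17280331 to 17282999 lay 34 bp from a gene and had scores of 106.53 in replicate 1 and 150.7 in replicate 2.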
